A study of Homo sapiens with 12 samples.

Results

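The proteasome genes of 501Mel melanoma cells were followed over 6 treatments. Members were all rows of the count table whose symbol consists of PSM, one letter from A to G and a number, which gave 48 of the 56638 gene symbols. They cover the 20S core, the 19S cap, the immunosubunits, the activators, the inhibitor PI31 (PSMF1) and the dedicated assembly chaperones. 46 members passed the filter on low counts, and the other two, the testis subunit PSMA8 and the thymus subunit PSMB11, had between 0 and 2 counts in every library. The treatments lasted 48 h and were DMSO (vehicle), 1 µM of the BRAF inhibitor vemurafenib (Vem), 5 µM resveratrol (RSV, an antagonist of the aryl hydrocarbon receptor AhR), 10 nM of the dioxin TCDD (an AhR agonist), RSV+Vem, or RSV+TCDD. The treatment protocol gives 10 nM TCDD for RSV+TCDD as well, whereas the label of those libraries gives 1 nM. Each group had 2 libraries, all from one BRAF-mutant cell line grown in serum, and the labels do not say whether the libraries of a group came from separate cultures, so the tests measure the spread between libraries only.

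The proteasome degrades proteins tagged with ubiquitin and produces most of the peptides that MHC class I molecules present. Its barrel-shaped 20S core is built from an outer pair of alpha rings and an inner pair of beta rings. PSMB5, PSMB6 and PSMB7 are the catalytic beta subunits, and they are replaced by PSMB8, PSMB9 and PSMB10 in the immunoproteasome, which interferon induces. The 19S cap binds ubiquitin chains, removes them and unfolds the substrate with a ring of ATPases, and PSMG1 to PSMG4 help the alpha ring to assemble. The transcription factor NFE2L1 raises the subunit genes together when proteasome activity falls, and several also respond to NFE2L2, the factor of the oxidative stress response.

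Counts on genes ranged from 8378655 (RSV+Vem replicate 2) to 25076925 (vehicle replicate 2) per library, and the members took between 0.524% and 0.688% of them. RNA integrity numbers were between 8.6 and 9.7, with both RSV+Vem libraries lowest. The 2 vehicle libraries differed more from each other than the libraries of any other group (chi-square per degree of freedom 23.4, against 4.80 to 13.4), and the members were lower in vehicle replicate 1 than in replicate 2 (median log2 deviation from the mean of all libraries -0.048 and 0.066). The 8 melanocyte markers summed to between 11162 and 51561 CPM (counts per 1e6 counts). The 5 leukocyte markers summed to at most 2.94 CPM, the 3 fibroblast markers to between 5.76 and 38.3 CPM and the 3 keratinocyte markers, 1 of them at 0 throughout, to at most 0.112 CPM. Below, levels are CPM after TMM scaling, fold changes are log2 values from edgeR's quasi-likelihood fit to all 12 libraries, and a gene was called at a Benjamini-Hochberg adjusted p below 0.05 over the 16080 genes tested.

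In vehicle-exposed cells the members spanned a wide range of levels. Per kb of transcript, the beta subunit PSMB4 stood highest at 452 ± 31 CPM per kb (SD, n = 2), followed by the alpha subunit PSMA7 at 416 ± 20, and these neighbours did not differ beyond their spread. PSMD2, a large scaffold of the 19S base, followed at 214 ± 8.8 CPM per kb and did not differ beyond the spread from the beta subunit PSMB1 at 211 ± 4.6. The ubiquitin receptor PSMD4 came next at 167 ± 2.8 CPM per kb. The assembly chaperones lay lower, between 21.4 CPM per kb for PSMG3 and 34.3 for PSMG1. PSMG1 and PSMG2, which act as a pair on the alpha ring, were at 34.3 ± 4.1 and 34.2 ± 0.41 CPM per kb and did not differ beyond their spread.

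The immunosubunits were among the lowest members. PSMB8 reached 9.30 ± 0.99 CPM per kb, PSMB9 5.67 ± 0.48 and PSMB10 1.51 ± 0.14, the last being the lowest of the 46. PSMD9 (3.77 ± 0.42) and PSMD5 (7.42 ± 1.1 CPM per kb), chaperones of the 19S base, lay between them. Exons shared on the same strand with another annotated gene make some levels uncertain: they covered 100% of the PSMA2 transcript, 81.4% of PSMA6, 67.0% of PSMA1, 56.1% of PSMB10 and 28.8% of PSMD9. Of 30 pseudogene rows named after members, 2 had more than 10 counts in any library. PSMC1P1 had 174 to 525 counts, up to 22.1% of those of PSMC1. PSME2P2 had 8 to 30 counts, up to 3.16% of those of PSME2.

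**Figure D1:**
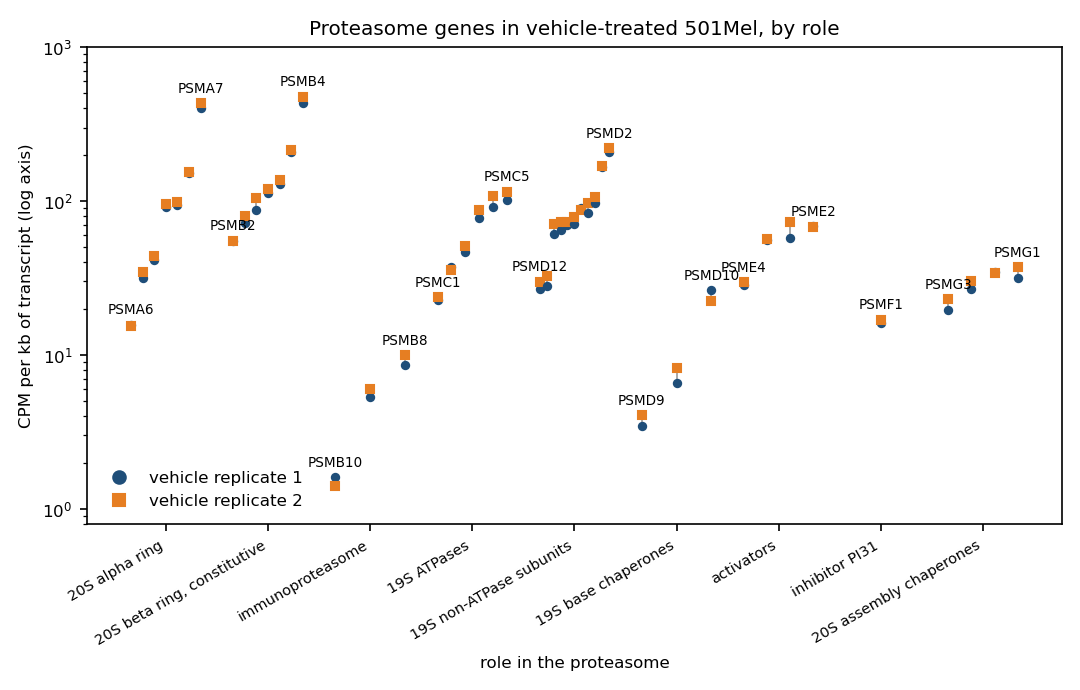
Levels of the 46 members in the 2 vehicle libraries, in CPM per kb of transcript on a log axis, ordered by level within each role; circles are replicate 1, squares replicate 2. PSMB4 (452 CPM per kb) and PSMA7 (416) stand at the top and the immunosubunit PSMB10 (1.51) at the bottom.

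Vem lowered all 4 chaperones of 20S assembly and raised the immunosubunit PSMB10. Against vehicle, 17 of 46 members were called, 6 higher and 11 lower, beside 52.4% of all tested genes called, 25.5% higher and 26.9% lower. The median member changed by -0.08 on the log2 scale and the median gene by -0.03. The member median was -0.14 without vehicle replicate 1 and 0.0085 without vehicle replicate 2, so its sign rested on 1 library. By role, the 4 assembly chaperones had a median of -0.81, the 7 alpha subunits of -0.18 and the 7 constitutive beta subunits of 0.14. These are shares of bulk RNA, in which fewer cells holding a transcript and less of it per cell cannot be told apart. The 8 melanocyte markers summed to between 48216 and 51561 CPM with Vem and to between 19414 and 20506 CPM in vehicle, and the part of this shift in the results was not tested.

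PSMG4, a partner of PSMG3 in alpha ring assembly, was at 21.0 and 23.6 CPM in vehicle and at 9.88 and 8.76 CPM with Vem. Both Vem libraries lay below those of all the other treatments, and the groups did not overlap. Its log2 fold change was -1.26 (SE 0.14, adjusted p = 6.65e-07), the strongest decrease among the members. PSMG1 went from 55.1 and 65.1 CPM in vehicle to 30.04 and 30.7 CPM with Vem. The Vem libraries nearly coincided while the vehicle libraries stood apart, and the change was -0.98 (SE 0.13, adjusted p = 3.8e-06). PSMG3 had 28.1 and 33.0 CPM in vehicle against 20.2 and 19.4 CPM with Vem, again without overlap, a change of -0.63 (SE 0.14, adjusted p = 0.00075). PSMG2 had 36.9 and 36.3 CPM in vehicle and 25.4 and 28.9 CPM with Vem. Its change was the smallest of the chaperones at -0.43 (SE 0.13, adjusted p = 0.00873). Groups without overlap were a condition for the largest changes named in each comparison. With Vem, 39.1% of all tested genes were lower without overlap and 36.8% higher.

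The stretches just before the start sites of PSMG1 and PSMG4 are shown because these genes changed most among the chaperones. Promoters of 250 bases were taken from RefSeq on GRCh38.p14, a build that differs from the hg19 of the counts, for the 42 members matched by symbol; PSMA7, PSMB1, PSMB6, PSMB7, PSMD4 and PSMG3 were not matched. Each is printed 5′ to 3′ in the direction of its gene, and capitals mark the core of the antioxidant response element, TGACNNNGC on either strand, where NFE2L1 and NFE2L2 can bind.

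PSMG1, chr21:39183452-39183701, minus strand: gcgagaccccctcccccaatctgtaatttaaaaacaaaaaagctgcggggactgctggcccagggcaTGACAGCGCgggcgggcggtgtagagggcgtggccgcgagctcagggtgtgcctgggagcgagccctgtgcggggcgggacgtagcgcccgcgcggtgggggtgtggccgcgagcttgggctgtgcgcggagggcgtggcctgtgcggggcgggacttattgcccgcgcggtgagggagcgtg

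PSMG4, chr6:3258697-3258946, plus strand: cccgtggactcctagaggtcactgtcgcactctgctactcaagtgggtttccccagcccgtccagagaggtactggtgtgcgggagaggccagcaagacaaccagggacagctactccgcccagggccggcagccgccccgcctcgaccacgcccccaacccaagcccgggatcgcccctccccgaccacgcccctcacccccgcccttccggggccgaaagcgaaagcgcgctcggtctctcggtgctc

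PSMG1 held 1 such core, 183 bases before the start, and PSMG4 held none. The first letters of this core, TGAC, also occur in the site of the AP-1 factors, so a match cannot name a factor. The core occurred in 11 of the 42 members' windows (26.2%) and in 11.03% of the 27305 windows of the whole table. Those windows were neither limited to the genes tested nor matched to the members in base content. The core of the xenobiotic response element, GCGTG on either strand, where AhR binds with ARNT, occurred in 13 of 42 (31.0%) beside 31.9% of all windows. PSMG1 held 3 of these and PSMG4 held 2. The ETS letters CCGGAAG were found in 23.8% of members' windows beside 8.82% of all, and the letters CCAAT in 42.9% beside 33.0%.

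**Figure D2:**
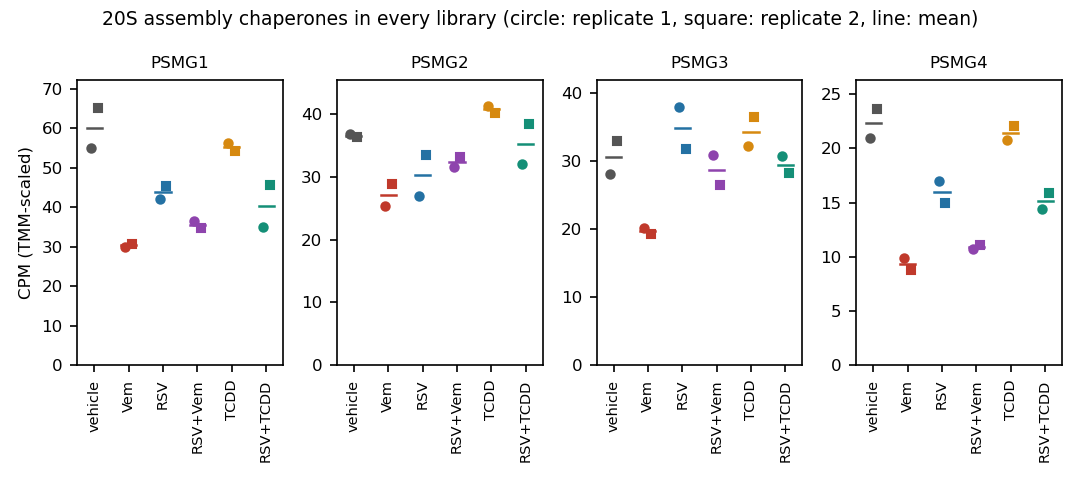
TMM-scaled CPM of PSMG1, PSMG2, PSMG3 and PSMG4 in every library, by treatment; circles are replicate 1, squares replicate 2 and lines group means. Both Vem libraries are lowest for PSMG1 (30.04 and 30.7 CPM), PSMG3 and PSMG4, whereas for PSMG2 they overlap with RSV, and the TCDD libraries sit beside vehicle.

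Among the structural subunits, Vem lowered members of the alpha ring, the beta ring and the cap. PSMA3 had 87.1 and 91.4 CPM in vehicle and 54.8 and 60.1 CPM with Vem, a change of -0.64 (SE 0.11, adjusted p = 9.82e-05) without overlap. PSMD14, the deubiquitinase of the cap, had 109 and 115 CPM in vehicle against 79.1 and 85.6 CPM with Vem. Its groups did not overlap either, and the change was -0.44 (SE 0.096, adjusted p = 0.000766). The remaining lower calls were the alpha subunits PSMA2 (-0.39) and PSMA5 (-0.31), the beta subunit PSMB2 (-0.37), the ATPase PSMC6 (-0.43) and the lid subunit PSMD12 (-0.40). PSMA2 shares all of its exons with a readthrough transcript, so its own part of this change is uncertain.

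The 6 members that rose with Vem came from several roles. PSMB10 had 1.57 and 1.38 CPM in vehicle and 5.70 and 5.53 CPM with Vem. This was the strongest increase, 1.93 (SE 0.31, adjusted p = 4.44e-05), in a gene with only 24 to 82 counts per library. Exons shared on the same strand covered 56.1% of the PSMB10 transcript, so its own part of this and later changes is uncertain. PSME3, a nuclear activator of the core, had 183 and 233 CPM in vehicle and 258 and 279 CPM with Vem. The vehicle libraries were far apart but did not reach the Vem libraries, and the change was 0.37 (SE 0.10, adjusted p = 0.00543). PSMF1, which was named as an inhibitor of the core, had 131 and 138 CPM in vehicle and 170 and 169 CPM with Vem, a change of 0.33 (SE 0.087, adjusted p = 0.00346). PSMD9 (0.45), PSMA7 (0.27) and PSMB7 (0.23) were also called higher. Exons shared in this way covered 28.8% of the PSMD9 transcript.

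Of the 17 calls, 10 were kept when each of the 4 vehicle and Vem libraries was left out in turn: PSMA2, PSMA3, PSMB2, PSMB10, PSMC6, PSMD14, PSMF1, PSMG1, PSMG3 and PSMG4. The number called higher fell from 6 to 2 without vehicle replicate 1 or without Vem replicate 2, and rose to 11 without vehicle replicate 2. PSMG2 lost its call without Vem replicate 1 (-0.34, adjusted p = 0.109) and PSME3 without vehicle replicate 1 (0.20, adjusted p = 0.121) or Vem replicate 2 (0.31, adjusted p = 0.0656). PSMD9 lost it without vehicle replicate 1, Vem replicate 1 or Vem replicate 2 (0.34, 0.51 and 0.39). PSMA7 and PSMB7 lost it without vehicle replicate 1 or Vem replicate 2, and PSMA5 and PSMD12 without vehicle replicate 2 or Vem replicate 1. Scaling to the ERCC spike-ins moved the median of all genes by -0.65, left PSMG1, PSMG3, PSMG4, PSMA3 and PSMD14 called lower, and turned 5 of the 6 higher calls negative, PSMB10 being the exception. Relative to the median gene, the median member was then at -0.051, beside -0.049 with TMM scaling.

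A ratio between members within a library does not depend on that scaling. The mean log2 level of the 4 assembly chaperones over that of the 14 constitutive core subunits was -1.95 and -1.88 in vehicle. With Vem it was -2.58 and -2.70, the lowest values of the 12 libraries. It was -2.15 and -2.18 with RSV, -2.26 and -2.25 with RSV+Vem, -1.97 and -1.95 with TCDD, and -2.19 and -2.14 with RSV+TCDD. The difference between Vem and vehicle was -0.73, and the groups did not overlap, but 2 against 2 libraries cannot give an exact permutation p below 0.33.

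RSV alone raised several subunits of the 19S cap and lowered PSMG1 and PSMG4. Of 46 members, 14 were called against vehicle, 9 higher and 5 lower, beside 40.7% of all tested genes, 20.5% higher and 20.2% lower. The median member changed by 0.05 and the median gene by -0.0018 on the log2 scale, and the member median was -0.0056 without vehicle replicate 1 and 0.10 without vehicle replicate 2. 4 of the 11 non-ATPase subunits of the cap and 2 of its 6 ATPases rose, and 1 non-ATPase subunit fell. The melanocyte markers summed to between 11162 and 12361 CPM with RSV, below vehicle, and their part in the results was not tested here or in the other comparisons of RSV below.

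PSMD3, a scaffold of the cap's lid, was at 131 and 152 CPM in vehicle and at 208 and 191 CPM with RSV. It had the strongest increase among the members called, 0.50 (SE 0.094, adjusted p = 0.000408). PSMD2 had 606 and 642 CPM in vehicle and 798 and 801 CPM with RSV, the highest values of this gene in the series. Its change was 0.36 (SE 0.078, adjusted p = 0.00149). PSMD4 had 218 and 223 CPM in vehicle and 286 and 282 CPM with RSV, a change of 0.36 (SE 0.080, adjusted p = 0.00155). In all 3 genes the RSV libraries lay above both vehicle libraries, which the naming of the largest changes required. This held for 34% of all tested genes. PSMD9 followed with 9.46 and 11.1 CPM in vehicle and 15.6 and 13.2 CPM with RSV, a change of 0.48 (SE 0.15, adjusted p = 0.0196). The ATPases PSMC5 (0.30) and PSMC2 (0.24), the lid subunit PSMD11 (0.27), the catalytic subunit PSMB5 (0.27) and the alpha subunit PSMA4 (0.25) completed the higher calls.

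The promoter windows of PSMD3 and PSMD9 are shown as those of the members with the largest called increases, with capitals for the same antioxidant core.

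PSMD3, chr17:39980557-39980806, plus strand: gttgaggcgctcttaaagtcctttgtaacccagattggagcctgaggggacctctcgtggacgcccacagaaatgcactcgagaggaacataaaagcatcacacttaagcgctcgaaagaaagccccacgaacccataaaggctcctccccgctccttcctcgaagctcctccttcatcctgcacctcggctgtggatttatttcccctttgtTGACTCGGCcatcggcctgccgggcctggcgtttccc

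PSMD9, chr12:121888540-121888789, plus strand: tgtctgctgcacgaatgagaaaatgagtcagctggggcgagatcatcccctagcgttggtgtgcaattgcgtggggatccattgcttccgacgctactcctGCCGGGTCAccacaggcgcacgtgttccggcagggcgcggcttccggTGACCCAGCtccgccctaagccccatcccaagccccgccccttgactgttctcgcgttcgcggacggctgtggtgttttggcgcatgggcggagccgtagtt

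The PSMD3 window held 1 core 37 bases before the start, and that of PSMD9 held 2, at 149 and 102 bases. Of the 11 members with such a core, RSV raised 2, PSMD3 and PSMD9, and lowered 1, PSMG1. Of the 29 tested members with a window and no core, it raised 6 and lowered 4.

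The 5 members that fell with RSV included PSMG4, at 17.0 and 15.0 CPM with RSV (-0.48, SE 0.13, adjusted p = 0.00671), and PSMG1, at 42.1 and 45.4 CPM (-0.46, SE 0.12, adjusted p = 0.00656). Both chaperones thus lay between their vehicle and Vem levels. PSMG2 had 27.0 and 33.6 CPM and PSMG3 37.9 and 31.8 CPM with RSV, and neither was called (adjusted p = 0.094 and 0.261). PSMD14 (-0.33), PSME3 (-0.29) and PSMA2 (-0.28) made up the rest. 3 of the increases, PSMD2, PSMD3 and PSMD4, were kept whichever library was left out. Without vehicle replicate 1 the number called higher was 3 in place of 9, and without RSV replicate 1 there were 5 higher and 3 lower calls. Without vehicle replicate 2 the number called lower was 1 in place of 5, and PSMG1 was then at -0.33 (adjusted p = 0.0819) and PSMG4 at -0.39 (adjusted p = 0.0587). PSMG4 also lost its call without RSV replicate 2 (-0.40, adjusted p = 0.0629), and PSMD9 without vehicle replicate 1 (0.37, adjusted p = 0.133) or RSV replicate 1 (0.35, adjusted p = 0.164). Spike-in scaling moved the median of all genes by -0.17 and called no member in either direction.

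The same effect of RSV can be read in cells that also received TCDD, from libraries that share none with the comparison above. RSV+TCDD against TCDD had 4 members called higher and 9 lower, beside 37.7% of all tested genes, 18.6% higher and 19.1% lower. The melanocyte markers summed to between 26281 and 27220 CPM with TCDD and to between 16546 and 17467 CPM with RSV+TCDD. PSMD3 was at 128 and 140 CPM with TCDD and at 169 and 164 CPM with RSV+TCDD, a change of 0.31 (SE 0.094, adjusted p = 0.0138). PSMD2 (0.25), PSMD4 (0.24) and PSMF1 (0.24) were the other higher calls. PSMG4 was at 20.8 and 22.1 CPM with TCDD and at 14.4 and 15.9 CPM with RSV+TCDD, a change of -0.49 (SE 0.13, adjusted p = 0.00691). PSMG1 was at 56.2 and 54.3 CPM and then at 35.1 and 45.7 CPM, a change of -0.45 (SE 0.12, adjusted p = 0.00801), with RSV+TCDD libraries that stood apart from each other but below TCDD.

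PSMA2 had 156 and 145 CPM with TCDD and 110 CPM in both RSV+TCDD libraries, a change of -0.45 (SE 0.090, adjusted p = 0.000708), and it was the 1 call kept whichever library was left out. PSMD14 (-0.37), PSMA3 (-0.35), PSMA6 (-0.34), PSME3 (-0.31), PSMB6 (-0.27) and PSMD6 (-0.25) were also lower. Over the 46 members the changes with RSV in the absence and in the presence of TCDD had the same sign in 36 (78.3%), with a Pearson r of 0.85, beside 82.6% and 0.79 over all genes tested. All 5 members that fell with RSV alone were also called lower here, and 3 of the 9 that rose, PSMD2, PSMD3 and PSMD4 (33.3%), were called higher, beside 70.8% of the genes lower and 69.2% of those higher with RSV over all genes tested. There were 0 higher and 3 lower calls without TCDD replicate 1, 3 and 4 without TCDD replicate 2, 1 and 1 without RSV+TCDD replicate 1, and 2 and 6 without RSV+TCDD replicate 2. Without RSV+TCDD replicate 1, PSMG1 was at -0.28 (adjusted p = 0.15) and PSMG4 at -0.42 (adjusted p = 0.0712). Spike-in scaling moved the median of all genes by -0.69 here and turned the 4 increases negative.

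With RSV present, the drop of PSMG1, PSMG2 and PSMG4 with Vem was smaller than without RSV by the interaction test, a call that PSMG1 alone of the chaperones kept in every refit and that spike-in scaling removed. RSV+Vem against RSV had 13 members called, 2 higher and 11 lower, beside 24.7% of all tested genes, 11.3% higher and 13.4% lower, and the median member changed by -0.16 where the median gene changed by 0.00. PSMG4 was at 10.7 and 11.1 CPM with RSV+Vem, below both RSV libraries, a change of -0.55 (SE 0.14, adjusted p = 0.00934). PSMG1 was at 36.4 and 34.7 CPM, also below RSV, but its change of -0.30 was not called (SE 0.13, adjusted p = 0.101). PSMG2 had 31.6 and 33.2 CPM, within the range of the RSV libraries (0.09, adjusted p = 0.651), and PSMG3 had 30.9 and 26.5 CPM, below them (-0.27, adjusted p = 0.148).

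The interaction, the effect of Vem in the presence of RSV minus its effect without, called 3 members higher and 3 lower, beside 22.7% of all tested genes, 11.8% higher and 10.9% lower. It was 0.71 for PSMG4 (SE 0.20, adjusted p = 0.0168), 0.69 for PSMG1 (SE 0.18, adjusted p = 0.0105) and 0.53 for PSMG2 (SE 0.18, adjusted p = 0.0466). For PSMG3 it was 0.36 (SE 0.19, adjusted p = 0.186), with an interval from -0.04 to 0.76. A positive value means here that the decrease with Vem was smaller when RSV was present. RSV had itself lowered PSMG1 and PSMG4, so that the RSV+Vem libraries of both still lay below vehicle.

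3 subunits were called with interactions of the other sign. PSMD2 was at 600 and 617 CPM with Vem, close to vehicle, but at 569 and 554 CPM with RSV+Vem against the 798 and 801 CPM of RSV. The fall from RSV to RSV+Vem was -0.51 (SE 0.079, adjusted p = 0.000141) and the interaction -0.47 (SE 0.11, adjusted p = 0.00505). PSMB5, the chymotrypsin-like catalytic subunit, was at 91.6 and 108 CPM in vehicle, 113 and 116 with Vem, 128 and 114 with RSV and 103 and 92.4 CPM with RSV+Vem. Either compound alone gave higher values than vehicle and the combination did not, with an interaction of -0.50 (SE 0.14, adjusted p = 0.0177). PSMB4 was at 395 and 435 CPM in vehicle, 442 and 498 with Vem, 434 and 412 with RSV and 366 CPM in both RSV+Vem libraries, an interaction of -0.39 (SE 0.12, adjusted p = 0.0277).

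PSMD2 and PSMG1 kept the interaction call whichever of the 8 libraries was left out. PSMG4 lost it without vehicle replicate 2 (0.61, adjusted p = 0.0521), Vem replicate 2 (0.63, adjusted p = 0.0776) or RSV replicate 2 (0.62, adjusted p = 0.0501), and PSMG2 in 7 of the 8 refits, with changes from 0.38 to 0.62. RSV+Vem replicate 2 was the shallowest library. Without it, PSMG4 (0.69, adjusted p = 0.0494), PSMG1 (0.72, adjusted p = 0.0226) and PSMD2 (-0.45, adjusted p = 0.0257) were still called, and PSMG2, PSMB5 (-0.42, adjusted p = 0.09) and PSMB4 (-0.39, adjusted p = 0.0771) were not. The lower calls numbered 1 without vehicle replicate 1, Vem replicate 2, RSV replicate 1 or RSV+Vem replicate 2, 5 without RSV replicate 2 and 7 without vehicle replicate 2. The higher calls numbered 1 without vehicle replicate 2 or Vem replicate 2. Spike-in scaling moved the median interaction of all genes by 0.13 and called no member.

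**Figure D3:**
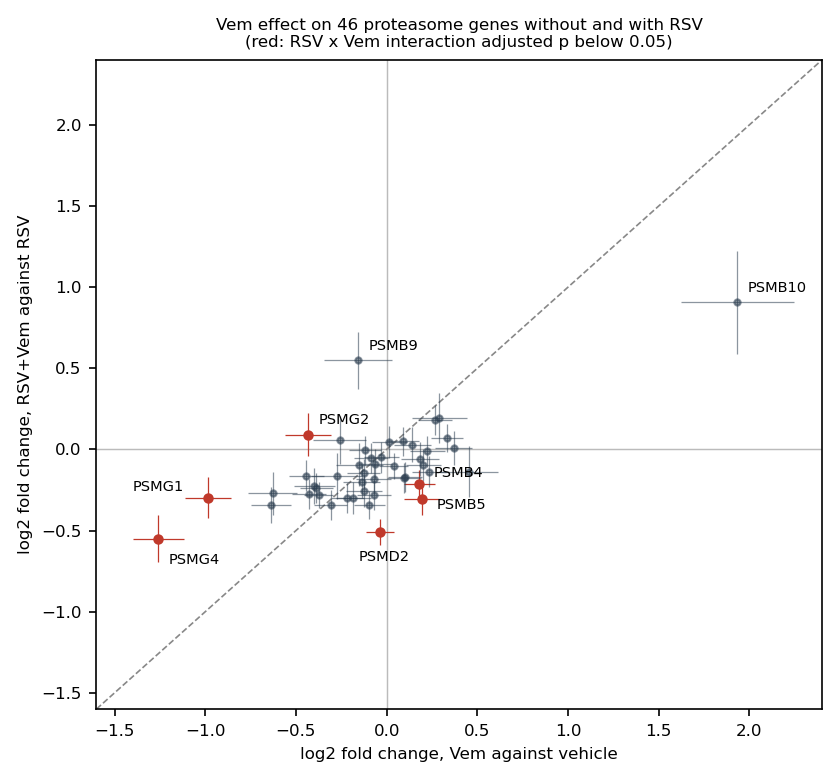
Log2 fold change of each of the 46 members with Vem, without RSV (horizontal axis, Vem against vehicle) and with RSV (vertical axis, RSV+Vem against RSV), with bars of 1 SE; red marks an interaction with an adjusted p below 0.05 and the dashed line equal changes. PSMG4 lies at -1.26 and -0.55, above the dashed line, and PSMD2 at -0.03 and -0.51, below it; under spike-in scaling the horizontal values of PSMD9, PSME3, PSMF1, PSMA7 and PSMB7 turn negative.

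Among the 46 members the changes with Vem had the same sign without and with RSV in 33 (71.7%), with a Pearson r of 0.69, beside 71.5% and 0.62 over all genes tested. These comparisons share no library. 5 of the 11 members lower in each were lower in both (45.5%), beside 35.7% of all genes lower with Vem alone and 71.8% of those lower in the presence of RSV. Of the 6 members higher with Vem alone, 1 (16.7%), PSMB10, was also higher in the presence of RSV, where 2 were. Over all genes, 33.3% of those higher with Vem alone and 74.8% of those higher in the presence of RSV were higher in both. The other decreases from RSV to RSV+Vem were the alpha subunits PSMA5 (-0.34), PSMA3 (-0.34) and PSMA4 (-0.30), the beta subunits PSMB5 (-0.30) and PSMB2 (-0.28), the lid subunits PSMD13 (-0.34) and PSMD11 (-0.28), the activator PSME4 (-0.30) and the ATPase PSMC6 (-0.27). In place of 11 lower calls there were 7 without RSV replicate 1, 5 without RSV replicate 2, 3 without RSV+Vem replicate 1 and 4 without RSV+Vem replicate 2, and PSMD2 was the 1 call kept in every refit. Spike-in scaling moved the median of all genes by -0.53 and left no member called, without turning a sign among the 13.

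The effect of RSV on Vem-exposed cells was led by a rise of PSMB9 and a fall of PSME3. RSV+Vem against Vem had 4 members called higher and 5 lower, beside 37.9% of all tested genes, 19.1% higher and 18.7% lower. The melanocyte markers summed to between 19683 and 21060 CPM with RSV+Vem, against 48216 to 51561 CPM with Vem. PSME3 was at 258 and 279 CPM with Vem and at 171 and 170 CPM with RSV+Vem. The groups were far apart, the change was -0.65 (SE 0.10, adjusted p = 7.66e-05), and it was called whichever library was left out. PSMG3 was at 20.2 and 19.4 CPM with Vem and at 30.9 and 26.5 CPM with RSV+Vem, a change of 0.54 (SE 0.14, adjusted p = 0.00464) that was lost without RSV+Vem replicate 1 (0.42, adjusted p = 0.0848). PSMB4 (-0.36), PSMC4 (-0.35), PSMB7 (-0.33) and PSMA7 (-0.31) fell, and PSMC6 (0.28) and PSMD4 (0.22) rose. Without and with Vem, the changes with RSV had the same sign in 31 of the 46 members (67.4%), beside 64.2% of all genes tested. Pearson r was 0.14 over the members and 0.53 over all genes tested, and these comparisons share no library. Of the members called with RSV alone, 1 of 9 higher (11.1%) and 1 of 5 lower (20%) were called alike here. Over all genes tested these shares were 41.9% and 42.3%. Without Vem replicate 2 the lower calls fell from 5 to 1. The higher calls fell from 4 to 2 without Vem replicate 1, RSV+Vem replicate 1 or RSV+Vem replicate 2, and PSMB9 was at 0.99 (adjusted p = 0.0022) without the last of these. Spike-in scaling, which moved the median of all genes by -0.04, ended all 9 calls, PSME3 and PSMB9 included.

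Of the 3 immunosubunits, PSMB9 and PSMB10 were called in some comparisons and PSMB8 in none. In RSV+Vem against RSV all 3 had positive changes, 0.19 for PSMB8, 0.55 for PSMB9 and 0.91 for PSMB10. PSMB9 was at 5.42 and 6.11 CPM in vehicle, 5.22 and 5.15 with Vem, 6.87 and 6.36 with RSV and 10.3 and 8.88 CPM with RSV+Vem. It was at 7.49 and 8.90 CPM with TCDD and at 8.51 and 10.4 CPM with RSV+TCDD. The RSV+Vem libraries were 0.90 above Vem (SE 0.19, adjusted p = 0.000938) and 0.55 above RSV (SE 0.18, adjusted p = 0.0291), the latter lost without any 1 of RSV replicate 1, RSV replicate 2 and RSV+Vem replicate 1 (0.43 to 0.61, adjusted p = 0.0586 to 0.263). Its interaction of RSV and Vem was 0.71 (SE 0.26, adjusted p = 0.055). That of PSMB10 had the other sign at -1.03, the lowest of the members, and that of PSMB8 was -0.10. Neither was called. PSMB10 was at 2.83 and 1.63 CPM with RSV and at 3.67 and 4.84 CPM with RSV+Vem, 0.91 higher (SE 0.32, adjusted p = 0.0446). This last call was lost without RSV replicate 2, RSV+Vem replicate 1 or RSV+Vem replicate 2 (0.54, 1.13 and 0.73). PSMB8 was between 9.67 and 14.4 CPM in all libraries and was called in none of the 9 comparisons.

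Set against the constitutive subunit whose place it takes, PSMB10 was at 1.23% and 1.02% of PSMB7 in vehicle and at 3.97% and 3.37% with Vem. It was at 2.14% and 1.19% with RSV, 2.87% and 4.14% with RSV+Vem, 0.965% and 1.18% with TCDD and 1.44% and 2.63% with RSV+TCDD. PSMB9 was at 9.11% and 9.23% of PSMB6, the caspase-like subunit, in vehicle and at 8.004% and 7.001% with Vem. This ratio was higher in all the other groups, at 11.8% and 11.1% with RSV, 17.0% and 15.5% with RSV+Vem, 11.1% and 11.8% with TCDD and 14.2% and 17.8% with RSV+TCDD. PSMB8 was at 10.6% and 10.4% of PSMB5 in vehicle, 10.3% and 12.1% with Vem, 9.59% and 9.78% with RSV, 12.2% and 15.6% with RSV+Vem, 11.5% and 11.03% with TCDD and 10.5% and 9.99% with RSV+TCDD. This ratio was highest with RSV+Vem, though replicate 1 (12.2%) was only just above Vem replicate 2 (12.1%). In RSV+Vem against RSV all 3 ratios were higher without overlap, by 0.51 for PSMB8 over PSMB5, 0.50 for PSMB9 over PSMB6 and 1.11 for PSMB10 over PSMB7 on the log2 scale. With 2 libraries a group the exact permutation p of any such difference cannot go below 0.33. No comparison had all 3 immunosubunits called higher. In RSV+Vem against RSV, PSMB8 changed by 0.19 without a call while PSMB5 was called lower (-0.30), and both entered their ratio.

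**Figure D4:**
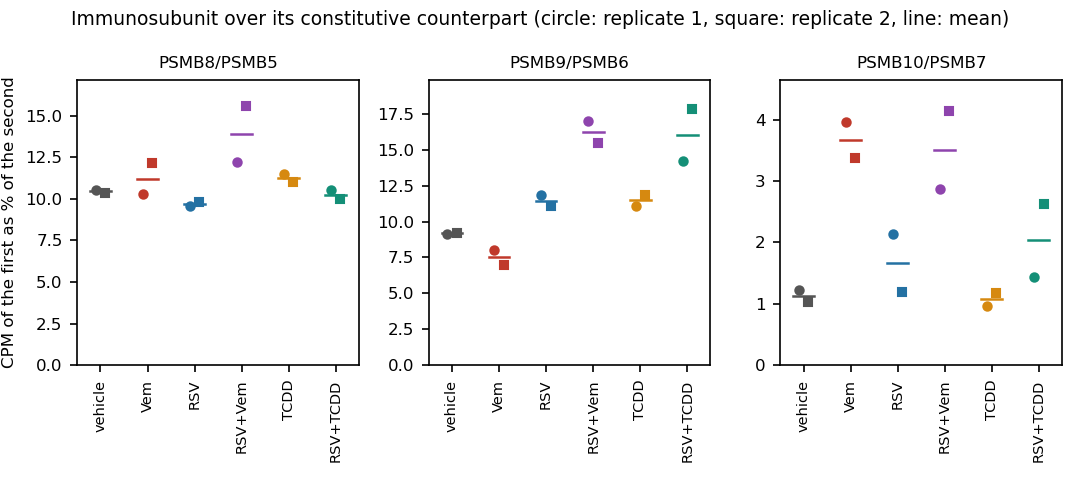
CPM of each immunosubunit as a percentage of the CPM of its constitutive counterpart in every library, for PSMB8 over PSMB5, PSMB9 over PSMB6 and PSMB10 over PSMB7; circles are replicate 1, squares replicate 2 and lines group means. PSMB10 over PSMB7 is highest with Vem (3.97% and 3.37%) and RSV+Vem (2.87% and 4.14%), and PSMB9 over PSMB6 with RSV+Vem and RSV+TCDD.

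Few members were called with TCDD. Against vehicle, 1 of 46 was called higher and 0 lower, beside 6.73% of all tested genes, 4.72% higher and 2.01% lower. An unadjusted p below 0.05 was found for 9 of the 46, beside 3463 of the 16080 genes tested. PSME1, a subunit of the interferon-induced PA28 activator, was at 53.7 and 54.3 CPM in vehicle and at 70.3 and 69.0 CPM with TCDD. The libraries of each group nearly coincided, and the change was 0.37 (SE 0.095, adjusted p = 0.0246). Its partner PSME2 was at 54.3 and 53.4 CPM in vehicle and at 64.4 and 67.6 CPM with TCDD (0.29, SE 0.096, adjusted p = 0.0745). PSMB9 lay above both vehicle libraries with TCDD (0.49, SE 0.17, adjusted p = 0.0985), and neither it nor PSME2 was called. The 3 fibroblast markers summed to between 31.0 and 38.3 CPM with TCDD and to between 11.2 and 14.2 CPM in vehicle, nearly all of it from LUM, with at most 14 counts of DCN and 2 of COL3A1 in any library, and their part in the result was not tested. PSMG1 (-0.12), PSMG2 (0.16), PSMG3 (0.16) and PSMG4 (-0.06) were not called either, with intervals between -0.38 and 0.43.

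In the presence of RSV, TCDD again called PSME1 higher. RSV+TCDD against RSV had 1 member called higher and 1 lower, beside 6.16% of all tested genes, 3.89% higher and 2.28% lower. PSME1 was at 47.4 and 48.2 CPM with RSV and at 61.4 and 61.0 CPM with RSV+TCDD, a change of 0.36 (SE 0.096, adjusted p = 0.0347). PSMD2 was at 661 and 639 CPM with RSV+TCDD, below RSV, a change of -0.30 (SE 0.078, adjusted p = 0.0306). Both PSME1 calls and the PSMD2 call were lost when any 1 library of their comparison was left out, at nearly the same sizes (0.36 to 0.38 for PSME1 with TCDD, adjusted p = 0.0791 to 0.195, 0.35 to 0.37 in the presence of RSV, adjusted p = 0.0942 to 0.124, and -0.32 to -0.27 for PSMD2, adjusted p = 0.076 to 0.188). Spike-in scaling, which moved the median of all genes by -0.51 and by -1.03 here, turned PSME1 to -0.14 and -0.66. No member had an interaction of RSV and TCDD called, beside 0.149% of all tested genes, 0.0124% higher and 0.137% lower. DESeq2 also called 0, and 3 of the 46 had an unadjusted p below 0.05, beside 1268 of the 16080 genes tested.

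The PSME1 window is shown as that of the 1 member called with TCDD in both settings.

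PSME1, chr14:24135944-24136193, plus strand: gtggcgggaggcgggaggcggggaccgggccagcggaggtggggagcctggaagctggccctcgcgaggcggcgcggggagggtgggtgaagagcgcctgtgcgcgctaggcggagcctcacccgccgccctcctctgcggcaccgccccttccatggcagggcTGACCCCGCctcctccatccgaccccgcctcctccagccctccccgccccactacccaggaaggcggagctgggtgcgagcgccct

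It held 1 antioxidant core, 86 bases before the start, and no xenobiotic core. With TCDD, 0 of the 12 tested members whose windows held the xenobiotic core and 1 of the 28 without it were called, beside 6.73% of all tested genes.

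**Figure D5:**
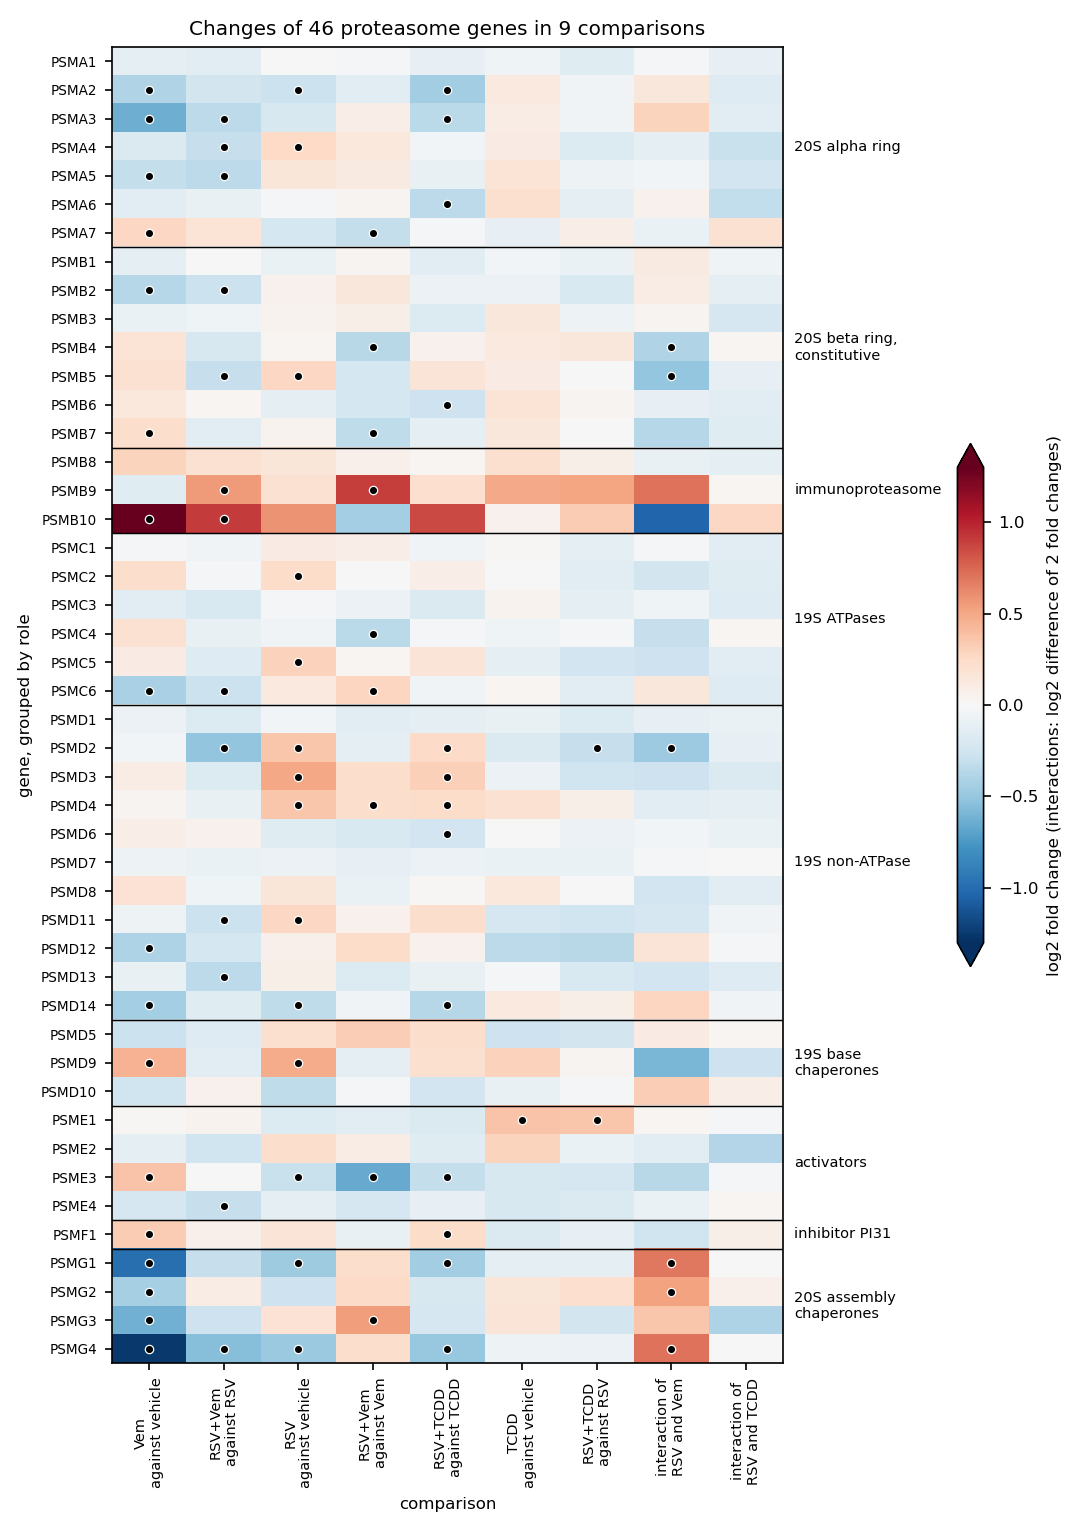
Log2 fold changes of the 46 members (rows, by role) in the 9 comparisons (columns), on a colour scale that saturates at its ends, with a dot where the adjusted p was below 0.05. All 4 assembly chaperones carry a dot with Vem and none with TCDD; under spike-in scaling 5 of the 6 increases with Vem, the 4 with RSV+TCDD against TCDD and both of PSME1 turn negative.

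Genes that work with the proteasome but lie outside the PSM symbols were followed in fixed lists, with TMM scaling throughout. Of 12 partners of the proteasome, Vem raised 2 and lowered 3, RSV raised 2 and lowered 6, and none was called with TCDD, with medians of -0.16, -0.24 and -0.10. Over all tested genes, 25.5% were called higher and 26.9% lower with Vem, 20.5% and 20.2% with RSV, and 4.72% and 2.01% with TCDD, and the counts of this and the following lists stand beside these shares. POMP, the maturation protein of the 20S core, was at 202 and 198 CPM in vehicle, 143 and 153 with Vem and 139 and 160 CPM with RSV. It was lower with either compound (-0.43, adjusted p = 0.00625, and -0.42, adjusted p = 0.0105) and in RSV+TCDD against TCDD (-0.43, adjusted p = 0.00969). UCHL5, a deubiquitinase of the cap, was at 118 and 122 CPM in vehicle and 51.3 and 62.4 CPM with Vem, a change of -1.08 (SE 0.12, adjusted p = 5.56e-07) with an interaction of 0.84 (SE 0.17, adjusted p = 0.00167). SHFM1, a small subunit of the lid, fell with Vem (-0.32, adjusted p = 0.0188) and with RSV (-0.32, adjusted p = 0.0264). ADRM1, a ubiquitin receptor of the cap, rose with RSV (0.48, adjusted p = 0.0125) and was at 0.32 with Vem (adjusted p = 0.0668). ZFAND2A, which is induced by proteotoxic stress, rose with RSV (0.70, adjusted p = 0.002).

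Of the 8 regulators, Vem raised 1 and lowered 3, with a median of -0.22, while RSV and TCDD each had 1 called higher. In RSV+Vem against Vem, 5 of the 8 were called higher, beside 19.1% of all tested genes. NFE2L1 was at 207 and 223 CPM in vehicle, 309 and 310 with Vem and 352 and 305 CPM with RSV, an increase of 0.52 (SE 0.090, adjusted p = 9.02e-05) and 0.61 (SE 0.090, adjusted p = 4.66e-05); the increase with Vem turned to -0.13 under spike-in scaling. NFE2L2 was at 107 and 94.1 CPM in vehicle, 53.8 and 60.2 with Vem, 97.8 and 96.2 with RSV and 141 and 136 CPM with TCDD. It fell with Vem (-0.82, SE 0.097, adjusted p = 1.31e-06), with an interaction of 0.60 (SE 0.14, adjusted p = 0.00406), and was called higher with TCDD (0.46, SE 0.094, adjusted p = 0.00524), a sign that turned under spike-in scaling. MAFF, a small MAF partner of both factors, had the largest change of the list with Vem, from 157 and 75.1 CPM in vehicle to 6.26 and 4.15 CPM (-4.46, SE 0.48, adjusted p = 0.000211).

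Of 18 genes of ubiquitin and shuttling, 7 rose and 3 fell with Vem, 7 rose and 5 fell with RSV and 3 rose with TCDD (medians 0.09, 0.13 and -0.10), led by the autophagy receptor SQSTM1 (0.97 with Vem, adjusted p = 8.21e-07, and 1.44 with RSV, adjusted p = 4.38e-08). Of 8 heat shock genes, 2 rose and 1 fell with Vem, 2 rose and 0 fell with RSV and 0 were called with TCDD (medians 0.10, 0.29 and 0.02). Of 12 genes of class I antigen processing outside the members, 6 rose and 1 fell with Vem, 6 rose and 0 fell with RSV and 2 rose with TCDD (medians 0.26, 0.31 and 0.10), while PSMB8 and PSMB9 were called in neither and PSMB10 with Vem only. In RSV+Vem against Vem, 3 of the 12 rose and 4 fell, beside 19.1% and 18.7% of all tested genes.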

How the data were processed

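RNA of 12 libraries of 501Mel cells was sequenced by the authors as stranded mRNA read pairs. The deposited table holds raw counts per gene symbol, which the authors made with STAR 2.4.0a on hg19 and featureCounts of Subread 1.5.0-p3, per the submitters' processing notes; the annotation release is not given in the sources used here. Genes that share a symbol share a count, and PCR copies were not removed.

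The 96 control sequences were set aside, filterByExpr by group kept 16080 genes, and TMM factors (0.890 to 1.08) scaled the libraries. edgeR 4.0.16 in R 4.3.3 was run in its robust quasi-likelihood form over all 12 libraries at once, with the 6 groups as terms and with Benjamini-Hochberg adjustment over all genes. SEs are the log2 fold change over the root of F, and intervals are at 95%. The common biological coefficient of variation was 0.091. The fit was tested on simulated data. Levels per kb use transcript lengths of a GENCODE annotation on GRCh37.

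Named with full values were the 5 largest increases and decreases called per comparison with groups apart and a mean count of at least 50, and a fixed set of catalytic, activator and inhibitor members; other members and pathway genes were added after their values were seen. The members and lists were chosen with earlier results of these data known. Replicate numbers were not used to pair the libraries. Of 15 pairs of groups, 6 had correlations of their deviations above 0.1 and 3 below -0.1, in a range from -0.31 to 0.37. The pairs among RSV, RSV+Vem and RSV+TCDD were positive (0.27 to 0.37), and those of TCDD with these groups negative (-0.31 to -0.22). Such signs cannot show that the libraries were unpaired. Alternatives were DESeq2 1.42.0, RLE factors, spike-in scaling, other filters, a replicate block, the compared libraries alone and leaving out each library; a fit without robust estimation was added after the data were seen.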

Additional observations from a re-analysis of the deposited data

Results flagged for a closer look

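6 members had an effect of Vem that differed between cells with and without RSV, by the interaction term of the edgeR fit. The assembly chaperones PSMG4 (0.71), PSMG1 (0.69) and PSMG2 (0.53) had positive values, and the subunits PSMB5 (-0.50), PSMD2 (-0.47) and PSMB4 (-0.39) had negative ones. 22.7% of all tested genes had such an interaction called.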

How the results depend on the processing

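Of the 2 fits that change little but the tool or the variance estimate, DESeq2 called 0 in place of 2 members higher in RSV+Vem against RSV and edgeR without robust estimation called 1. Scaling to the ERCC spike-ins, whose share differed between RSV+Vem replicates (0.0389% and 0.0903%), moved counts most. Vem then had 0 higher and 5 lower calls, and TCDD 0 higher. RSV, RSV+Vem against Vem, RSV+Vem against RSV, RSV+TCDD against TCDD and the interaction of RSV and Vem had 0 in both directions. RSV+TCDD against RSV had 0 higher and 35 lower, where the median gene was at -1.02 and the median member at -1.12. Signs turned for PSMD9 (-0.20), PSME3 (-0.28), PSMF1 (-0.32), PSMA7 (-0.39), PSMB7 (-0.42) and NFE2L1 (-0.13) with Vem, for PSME1 (-0.14) and NFE2L2 (-0.042) with TCDD, for PSMD3 (-0.36), PSMD2 (-0.43), PSMF1 (-0.43), PSMD4 (-0.45), NFE2L1 (-0.30) and ADRM1 (-0.18) in RSV+TCDD against TCDD, and for PSME1 (-0.66) in RSV+TCDD against RSV. The cause was not tested.

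Without a filter on low counts, TCDD called 0 members higher and 1 lower, RSV 5 higher, RSV+Vem against Vem 2 higher and RSV+TCDD against RSV 2 lower. With only the libraries compared, and so with fewer samples behind the spread, RSV called 4 higher and 2 lower, RSV+Vem against Vem 7 higher, RSV+Vem against RSV 0 higher and 4 lower, and RSV+TCDD against RSV 0 in both directions. The replicate block gave 2 in place of 1 lower call in RSV+TCDD against RSV and moved no other count of members by more than 1.5 times.

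Leaving out 1 library gave 2 to 11 higher and 8 to 12 lower calls with Vem, 0 higher and 0 to 1 lower with TCDD, 3 to 9 higher and 1 to 5 lower with RSV, 2 to 3 higher and 1 to 5 lower in RSV+Vem against Vem, 0 to 1 higher and 3 to 7 lower in RSV+Vem against RSV, 0 to 3 higher and 1 to 6 lower in RSV+TCDD against TCDD, 0 in both directions in RSV+TCDD against RSV, 1 to 2 higher and 1 to 7 lower for the interaction of RSV and Vem, and 0 for that of RSV and TCDD. With 2 libraries a group, small changes of single members could not be resolved, and a value that was not called is no sign of an unaltered level.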
